A study of Rattus norvegicus with 10 samples.

Results

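Expression across the genome was set against Arc, a gene that neurons switch on when they fire, in the prefrontal cortex of 10 individual rats. The 11557 features described here (probe sets, the groups of short probes that read 1 transcript) were chosen by 3 conditions: they were not array controls, carried 1 gene symbol, and had a mean log2 value above 4 over the 10 arrays. They came from 31042 features that are not controls and stood for 8468 genes. The only probe set with the symbol Arc, picked as the gradient with its measured values known, gave each rat its place on the gradient and was left out of the features. At the edge of the filter, Dnaaf10 (mean 4.00012) and Adamtsl2 (4.00172) were just inside, and Ubtd2 (3.99987) and Perp (3.99756) just outside.

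Arc is an immediate early gene: its transcription starts within minutes of synaptic activity, without new protein being made, and its mRNA travels to dendrites, where the protein acts on the removal of AMPA receptors from the synapse. Calcium entering through NMDA receptors and voltage-gated channels, and the MAP kinase cascade, turn on CREB, SRF and MEF2, which start such genes. The products fall into transcription factors (the AP-1, Egr and Nr4a families), regulators that shut the response down again (the Dusp phosphatases), and synaptic or secreted effectors such as Bdnf and Homer1. Their mRNAs are mostly short-lived, so their levels in cortex follow recent activity.

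All animals were male Lewis rats of 200 to 250 g, with no treatment, no surgery and no genetic change, so the study has 1 group and compares individuals. They were taken from 40 rats tested for sugar feeding, locomotion, acoustic startle and prepulse inhibition, and 7 of the 10 also had a plus maze score. They were killed in random order by decapitation 6 days after the last test, and cortex anterior to bregma +4.0 mm (areas Fr1 and Fr2) was dissected, leaving the olfactory bulb behind. Each array held the RNA of 1 rat, hybridised to an Affymetrix rat array, and the deposited values are log2 values after GCRMA. In such a piece of tissue, fewer cells of a type and less RNA per cell cannot be told apart.

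The promoters of the genes that followed Arc most closely are shown with the elements through which CREB acts. Egr4 is shown as an activity gene that followed Arc less closely (r = 0.64). Each line gives the 250 bases before the gene's start in the RefSeq annotation of GRCr8, written 5′ to 3′ on the gene's own strand. Capitals mark the cAMP response element (CRE) TGACGTCA and its short core, TGACG or CGTCA, which the full element contains. The windows lie at chr10:17184603-17184852 (plus strand) for Dusp1, chr7:134259888-134260137 (plus) for Nr4a1, chr19:40080876-40081125 (plus) for Junb and chr4:119607818-119608067 (minus) for Egr4.
Dusp1: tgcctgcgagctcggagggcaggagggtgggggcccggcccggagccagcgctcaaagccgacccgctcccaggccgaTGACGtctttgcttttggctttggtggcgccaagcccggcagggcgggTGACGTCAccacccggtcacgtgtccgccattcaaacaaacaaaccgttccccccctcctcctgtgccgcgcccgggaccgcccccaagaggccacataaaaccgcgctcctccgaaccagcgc
Nr4a1: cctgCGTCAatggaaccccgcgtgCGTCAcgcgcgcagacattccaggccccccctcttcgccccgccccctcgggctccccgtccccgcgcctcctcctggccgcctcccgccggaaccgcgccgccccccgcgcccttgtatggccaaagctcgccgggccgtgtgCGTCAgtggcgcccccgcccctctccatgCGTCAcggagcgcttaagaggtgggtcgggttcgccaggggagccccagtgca
Junb: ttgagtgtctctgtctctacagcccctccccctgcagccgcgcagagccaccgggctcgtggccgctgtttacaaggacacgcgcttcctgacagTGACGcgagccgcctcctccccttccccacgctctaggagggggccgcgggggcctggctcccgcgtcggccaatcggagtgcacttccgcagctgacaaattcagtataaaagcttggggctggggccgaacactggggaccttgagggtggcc
Egr4: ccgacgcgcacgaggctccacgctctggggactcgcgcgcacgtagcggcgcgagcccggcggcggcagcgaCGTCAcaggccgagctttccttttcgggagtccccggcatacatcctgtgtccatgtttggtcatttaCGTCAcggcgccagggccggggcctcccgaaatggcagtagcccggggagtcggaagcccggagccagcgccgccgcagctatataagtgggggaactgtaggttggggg
The Dusp1 window holds 1 full CRE, whose first base lies 124 bases before the start, and a separate core 172 bases before it. The Nr4a1 window holds 4 cores and no full CRE, the Junb window 1 core at 155 bases before the start, and the Egr4 window 2 cores. On both strands, a core was found in 19.0% and a full CRE in 1.70% of the 27457 promoter windows of the table, 1 for each gene (the start listed first). Among measured activity genes with a window, 22 of 35 held a core, 4 a full CRE and 4 a CArG box (the SRF element, found in 1.50% of all windows). The core was in 7 of 13 windows of activity genes with a positive slope on Arc and an unadjusted limma p under 0.05. Egr4 was among the 13. Of the windows of the other activity genes, 15 of 22 held the core. The shares over all windows include genes not measured here, so they are not a like background for the activity genes. A match is a description of the letters and not a binding site. Arc, Fos and Klf2 are named only.

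Arc differed 6.68-fold between the highest and the lowest rat. Its log2 value was 11.18 in rat 3, 10.83 in rat 8, 10.30 in rat 4, 9.72 in rat 2, 9.66 in rat 7, 9.35 in rat 9, 8.92 in rat 5, 8.82 in rat 1, 8.76 in rat 10 and 8.44 in rat 6, with a mean of 9.60 ± 0.93 (SD, n = 10). Rats 3, 8 and 4 were at 10.30 or above and the others at 9.72 or below. Rats 3 and 8 lay farthest from the median of 9.50. These values placed the rats and are given as a description.

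Dusp1, Nr4a1, Junb and Klf2 rose along the gradient, and these 4 features were the ones called out of 11557 (0.0346%) by limma at an adjusted p under 0.05. None was called as falling (0%). At an unadjusted p under 0.05, limma gave 118 rising (1.02%) and 228 falling features (1.97%). Chance alone gives a share of 0.05 on average over both directions, and these features together lie below it. They are not a count of genes that move with Arc. Counted as genes, each by its probe set with the highest mean, 4 of 8468 rose (0.0472%), and at an unadjusted p under 0.05 the shares were 1.11% rising and 1.75% falling. Slopes are in log2 units of the gene per log2 unit of Arc, and their median over all genes was -0.02, with 32.9% of genes positive. Fos, Nr4a1, Dusp1 and Junb had been named as activity markers with results of these data known, so their calls are not independent evidence. The permutation p-values of single genes with Arc are not adjusted for picking the genes from these same data. They describe the relation and add no evidence to the calls.

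Dusp1, a phosphatase that switches off MAP kinases, was the closest follower. Its log2 value had a low of 8.70 in rat 1, a median of 9.33 and a high of 10.65 in rat 3, a 3.85-fold span. Rats 3, 8 and 4, the top 3 for Arc, were also the top 3 for Dusp1 in that order. The slope was 0.74 ± 0.06 (SE, n = 10; limma adjusted p = 0.00106), with Pearson r = 0.98 (permutation p = 2e-05) and Spearman rho = 0.90 (p = 0.00082), and r was 0.94 without rats 3 and 8. Its other probe set lay just under the filter, at a mean of 3.92, and had a slope of 0.33 with r = 0.79.

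Nr4a1, an orphan nuclear receptor that acts as a transcription factor, ran from 8.78 through a median of 9.31 to 10.70 in rat 3. Rats 3, 8 and 4 stood at 10.36 or above and all others at 9.41 or below. The slope was 0.75 ± 0.07 (SE; limma adjusted p = 0.00422), with r = 0.96 (permutation p = 8e-05), rho = 0.90 (p = 0.00073) and r = 0.90 without rats 3 and 8. Without rat 3 the slope was also 0.75, at a limma adjusted p of 0.0769. Junb, a member of the AP-1 transcription factors, ran from 7.31 in rat 10 through 8.17 to 9.11 in rat 8. Its slope was 0.70 ± 0.08 (SE; limma adjusted p = 0.0164), with r = 0.95 (permutation p = 8e-05), rho = 0.92 (p = 0.00054) and r = 0.94 without rats 3 and 8. The call was lost without rat 6 (adjusted p = 0.0811) or rat 8 (adjusted p = 0.174), with slopes of 0.73 and 0.69.

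Klf2, a zinc finger transcription factor also known from blood vessel endothelium, had the steepest slope, 1.38 ± 0.18 (SE; limma adjusted p = 0.0483; r = 0.92, permutation p = 0.00027; rho = 0.90, p = 0.0006; r = 0.87 without rats 3 and 8). It was weakly expressed: 3.03 in the lowest rat, a median of 4.08 and 6.75 in rat 8, with 5 of 10 rats below 4. It passed the filter on the mean through the rats in which it was high, so it had to vary between rats. Leaving out any 1 rat other than rat 9 ended the call, with slopes between 1.22 and 1.58. The other Klf2 probe sets lay under the filter. That with a mean of 2.56 had a slope of 0.22 with r = 0.60, and the rest had slopes between -0.007 and 0.005. The endothelial and pericyte list, which Klf2 could follow, had 3 of 10 measured members with a positive slope and a median of -0.03. It had 6 of 10 without rat 6 (median 0.03) and 5 of 10 after quantile normalization of the arrays. The count was 1 of 10 without rat 3 and 2 of 10 without rats 3 and 8 (median -0.08 in both). Over all features the positive share was 32.1% with all rats, 36.4% without rat 6 and 48.6% after quantile normalization. It was 48.2% without rat 3 and 56.9% without rats 3 and 8. The list member Cldn5, a tight junction protein of brain vessels, had -0.12 ± 0.06. Whether Klf2 followed vessel cells was not tested. Without rats 3 and 8, which leaves Arc between 8.44 and 10.30, none of the 4 genes was called, while their slopes were 0.73 for Dusp1, 0.74 for Nr4a1, 0.86 for Junb and 1.39 for Klf2.

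**Figure D1:**
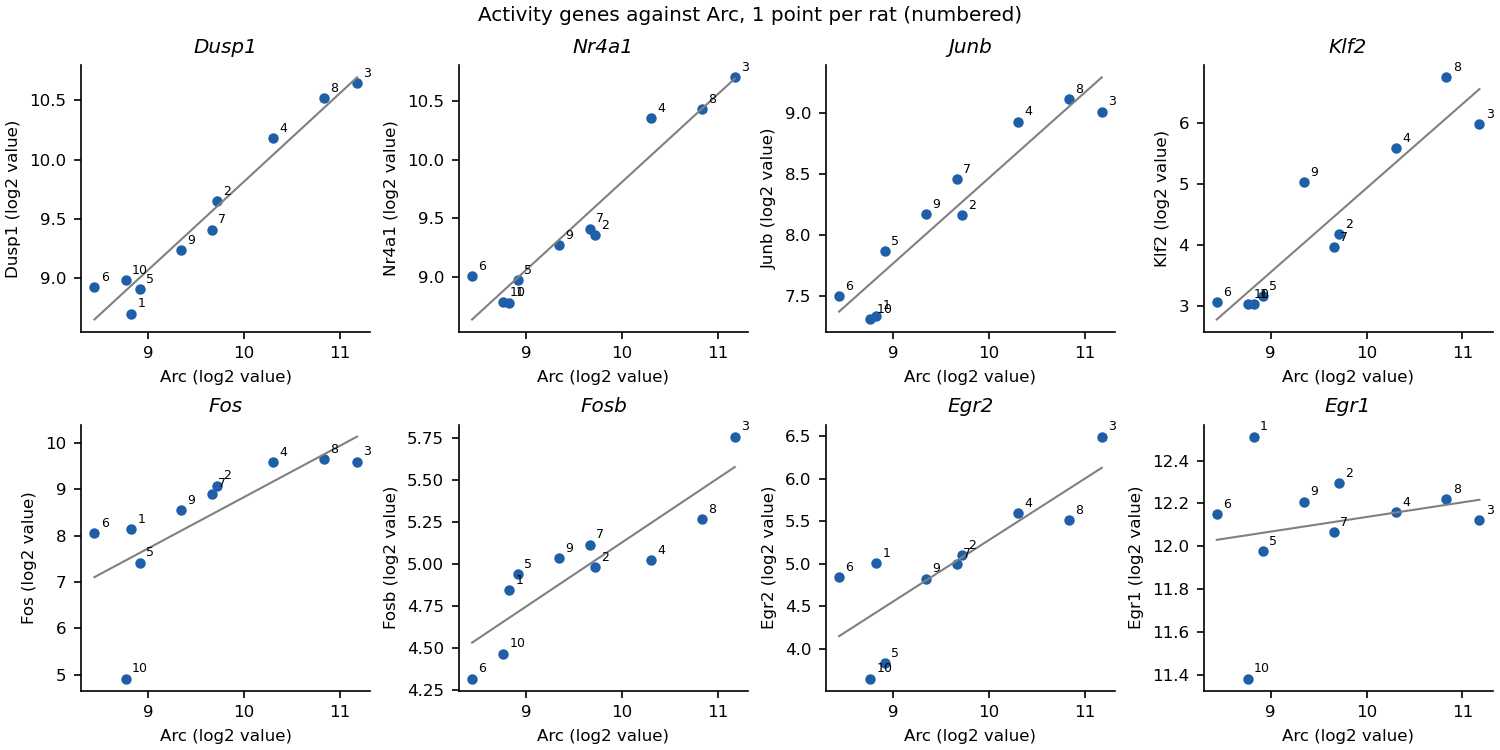
Log2 values of 8 activity genes (vertical axes) against the log2 value of Arc (horizontal axes), 1 numbered point per rat, with the fitted line. Dusp1, Nr4a1 and Junb lie close to their lines, Klf2 starts from 5 rats below 4, Fos has rat 10 at 4.91 far under the others, and Egr1 shows almost no slope (0.07).

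Fos, the AP-1 partner most used as a sign of neuronal activity, did not pass the test. It ran from 4.91 in rat 10 through a median of 8.73 to 9.66 in rat 8, and the next value above rat 10 was 7.42. The slope was 1.11 ± 0.34 (SE; limma adjusted p = 0.993), with r = 0.72 (permutation p = 0.0136) and rho = 0.93 (p = 0.00037). Without rat 10, r was 0.90 and the slope 0.77. Rat 10 also had the lowest Egr1 (11.38), Egr4 (7.79) and Egr2 (3.65). Junb and the mean score (log2 relative to the mean over rats) of the Nr4a list were lowest there too, and Arc was 8.76. Its mean of the spike-in controls (11.2) and its array median (3.91) were the lowest. Its 3′ minus 5′ differences of the Gapdh (0.15) and Actb (2.36) controls lay within the range of the other arrays. With the spike-in level in the fit, the slope of Fos was 1.17 ± 0.19 (SE, limma adjusted p = 0.267). The cause of the low values in rat 10 was not tested. With Fos in place of Arc as the gradient, no feature of 11556 was called as rising by limma (0%), and none without rat 10. Among Arc's followers the r with Fos was then 0.69 for Dusp1, 0.73 for Nr4a1, 0.79 for Junb and 0.72 for Klf2 over all rats, and 0.92, 0.89, 0.87 and 0.87 without rat 10. Over all rats Egr4 had the smallest p on Fos (slope 0.15 ± 0.02, r = 0.95, limma adjusted p = 0.268). Without rat 10, Egr4 ranked 34 by p (slope 0.14 ± 0.04, r = 0.82), and Tiparp ranked 1 (r = 0.92, limma adjusted p = 0.494).

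Across the 6 lists of activity genes, 67 genes in all, 42 were measured above the filter, 20 were on the array but not above it, and 5 had no probe set with 1 symbol. Of the 42, 32 had a positive slope, 4 rose, none fell, and 17 (40.5%) were rising and 1 falling at an unadjusted p under 0.05. Their median slope was 0.07, and 14 had r above 0.7. For all genes the median was -0.02 and the share rising at that unadjusted p was 1.11%. The lists were drawn up with results of these data known, and members that are high in some rats alone pass the filter more easily: 2 of the 42 had a rat below 4.

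**Figure D2:**
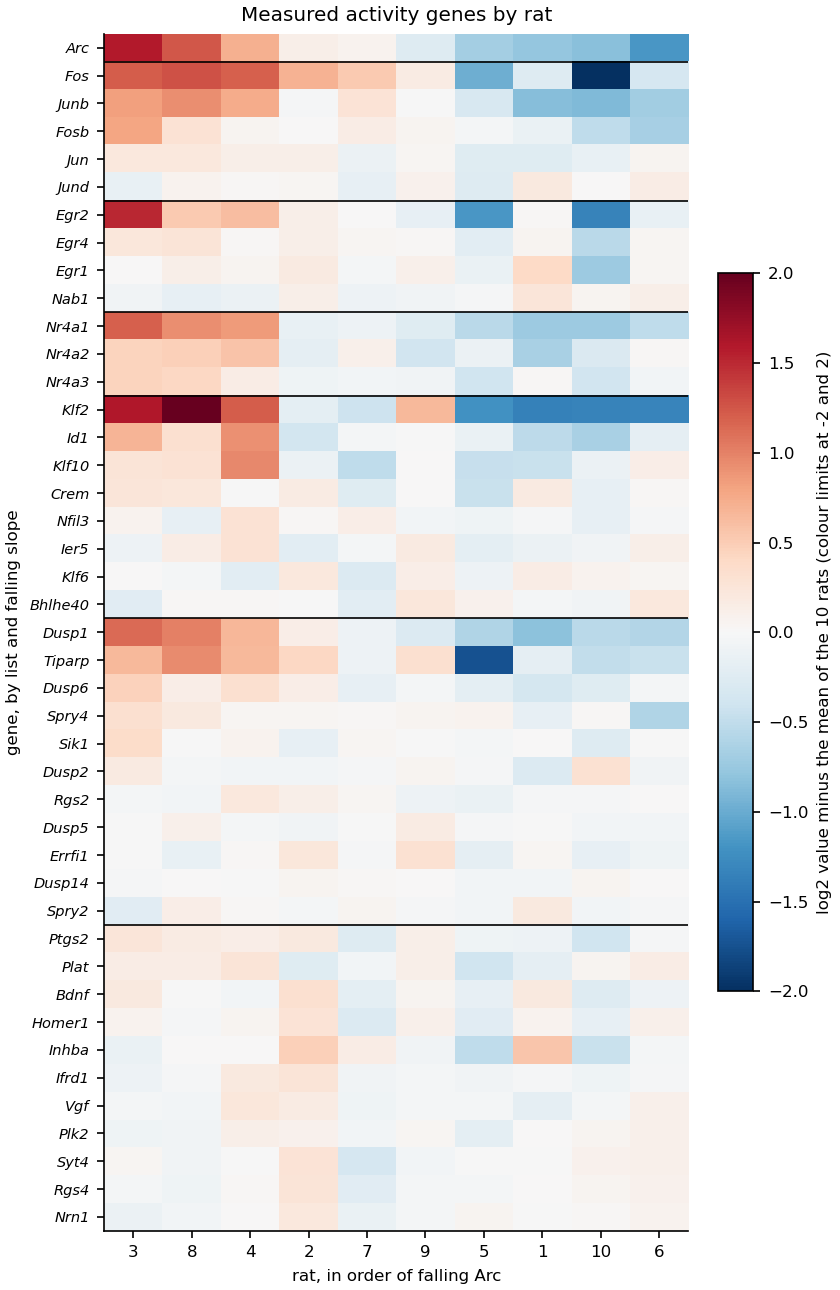
Log2 value minus the mean of the 10 rats for Arc and the 42 measured activity genes (rows, by list between the black lines), rats in columns from highest Arc (rat 3) to lowest (rat 6). Red in the left columns and blue in the right marks genes that follow Arc, such as Dusp1, Nr4a1 and Junb; Nrn1 and Rgs4 are nearly white, and values beyond the colour limits, such as Fos in rat 10, are drawn at the limit.

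Among the AP-1 factors, 4 of 5 measured members had a positive slope and 1, Junb, rose (median slope 0.38). Fosb, whose protein forms AP-1 with Jun partners, ran from 4.32 in rat 6 through 5.00 to 5.76 in rat 3, a 2.72-fold span. The lowest Arc rat was the lowest and the highest Arc rat the highest. Its slope was 0.38 ± 0.07 (SE; limma adjusted p = 0.26; r = 0.88, and 0.76 without rats 3 and 8). Jun, at a mean log2 value of 10.26, had a slope of 0.14 ± 0.04.

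All 3 Nr4a receptors had positive slopes, with a median of 0.33 and 1 call, Nr4a1. Nr4a2 had 0.33 ± 0.09 and Nr4a3 0.25 ± 0.06 (SE), with r of 0.77 and 0.83 and limma adjusted p-values of 0.993 and 0.894. The other probe sets of both genes had the same sign. Nr4a2 is also a marker of deep cortical neurons; that list had a median slope of 0.02, with 5 of 9 members positive, and -0.02 with 3 of 9 without rat 4.

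The Egr family, zinc finger factors downstream of MAP kinase, was uneven. Egr2 ran from 3.65 in rat 10 through 5.01 to 6.50 in rat 3, a 7.19-fold span, with a slope of 0.72 ± 0.16 (SE; r = 0.81, limma adjusted p = 0.894). Egr4 had 0.16 ± 0.06 (r = 0.64), and 0.10 without rat 10 (r = 0.71). Egr1 went from 11.38 in rat 10 to 12.51 in rat 1, with a slope of 0.07 ± 0.10 (r = 0.22, permutation p = 0.576), and of -0.02 without rat 10. Rat 1, where Arc was 8.82, had the highest Egr1. Nab1, a co-repressor that binds Egr proteins, had a negative slope of -0.09 ± 0.04 (r = -0.67).

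Among other rapid transcription factors, 6 of 8 were positive with a median of 0.09, and 1 rose, Klf2. Id1, an inhibitor of basic helix-loop-helix factors, had a slope of 0.43 ± 0.10 (r = 0.79), and Klf10 0.26 ± 0.13. Klf6 (-0.05 ± 0.05) and the clock-linked repressor Bhlhe40 (-0.08 ± 0.05) were negative. Of members below the filter, Klf4 (mean 3.38) had a slope of 0.53 with r = 0.89 and Ier2 (mean 3.67) 0.57 with r = 0.84; in the fit without the filter limma gave adjusted p-values of 0.628 and 0.762. The probe sets of its other 4 members below the filter, Maff, Myc, Cebpd and Cebpb, had slopes between -0.021 and 0.022.

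Of 11 measured feedback and inhibitory regulators, 9 were positive with a median of 0.03, and 1 rose, Dusp1. Dusp6, a phosphatase for ERK, was at a mean of 11.11 with a slope of 0.23 ± 0.05 (r = 0.83, limma adjusted p = 0.894), and its 2 other probe sets had the same sign. Tiparp, an ADP-ribosyltransferase, ran from 6.39 in rat 5 to 9.08 in rat 8 with a slope of 0.63 ± 0.18 (r = 0.74). Spry4, an inhibitor of receptor tyrosine kinase signalling, had 0.20 ± 0.06, and 0.12 without rat 6, its lowest rat. Sik1, a kinase that restrains CREB co-activators, had 0.11 ± 0.05, and 0.04 without rat 3, its highest rat.

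The synaptic and secreted effectors had the lowest median of these lists: 7 of 11 were positive, none was called, and the median was 0.02. Ptgs2, the inducible cyclooxygenase, had a slope of 0.15 ± 0.06 (r = 0.66). Bdnf, the neurotrophin, had 0.07 ± 0.06 at a mean of 8.87. Nrn1, a membrane-anchored neuritic factor, had -0.04 ± 0.04. Homer1, the scaffold of metabotropic glutamate receptors, depended on the probe set: the brightest had 0.03 ± 0.06, while another, singled out after its values were seen, ran from 6.63 in rat 7 to 9.47 in rat 3 with a slope of 0.68 (r = 0.75). Of the other 4 Homer1 probe sets, 2 had the sign opposite to the brightest. Homer1 makes a short activity-induced form and long constitutive forms, and which of them each probe set reads was not analysed here.

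**Figure D3:**
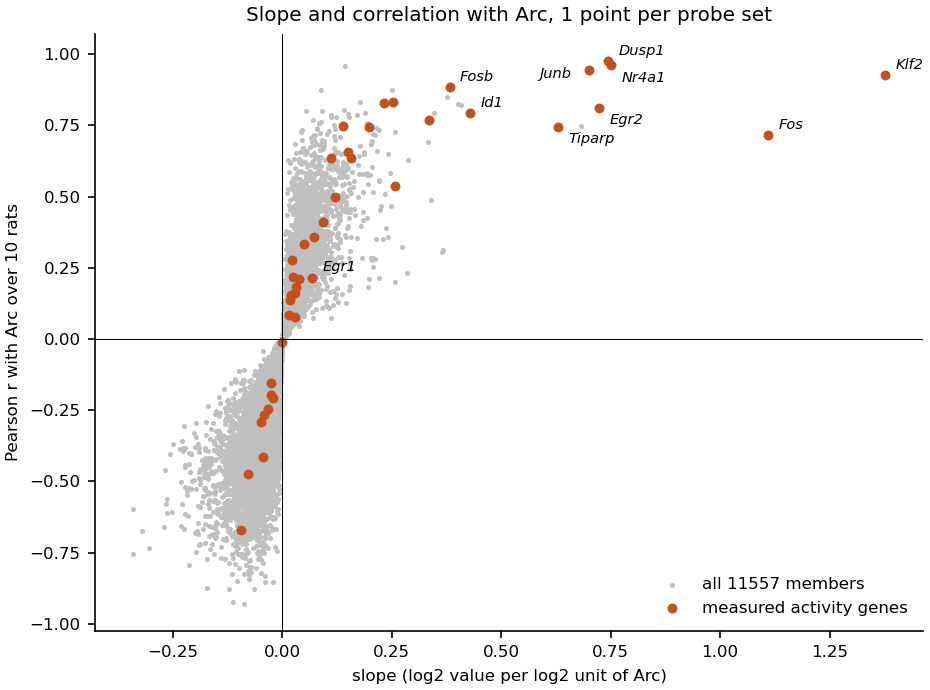
Slope on Arc (horizontal axis, log2 per log2 unit of Arc) and Pearson r over 10 rats (vertical axis) for each of the 11557 features (grey) and the 42 measured activity genes (orange). The activity genes spread to the right edge, with Klf2 at 1.38 and Fos at 1.11, while Egr1 lies inside the grey cloud.

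The 7 genes most like Arc by r over the 10 rats were Dusp1 (0.98), Nr4a1 (0.96), Ehbp1l1 (0.96), Junb (0.95), Klf2 (0.92), Fosb (0.88) and Ilf2 (0.87). Ehbp1l1, a protein of membrane traffic, moved little: 6.25 in rat 6, a median of 6.39 and 6.65 in rat 3. Its slope of 0.14 ± 0.02 (SE) had a limma adjusted p of 0.219, and it is named here for its high r. Gpr19, an orphan receptor, had a slope of 0.38 ± 0.07 (r = 0.85, limma adjusted p = 0.619). With the mean of the spike-in controls as a covariate it passed the test, with a slope of 0.36 and an adjusted p of 0.0314, while Klf2 no longer did (limma adjusted p = 0.0979). Hes1, a Notch target, had 0.41 ± 0.09 at a mean of 4.23, near the filter.

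No falling gene passed the test. The smallest p among them belonged to Lgi4, a secreted protein of glia: 9.55 in rat 3, a median of 9.85 and 10.12 in rat 6, with a slope of -0.17 ± 0.04 (SE; r = -0.88, limma adjusted p = 0.744). Washc1, a subunit of the WASH complex on endosomes, had r = -0.92, at a mean of 4.09 and a slope of -0.11 ± 0.02. Gnb1, a G protein beta subunit, had -0.12 ± 0.03, with 1 of its 2 other probe sets positive. Gpr146 had the steepest slope of those named, -0.30 ± 0.09 with r = -0.73, but r was -0.13 without rats 3 and 8.

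No gene of the pathway upstream of Arc, or of its partners, was called. Of 20 measured genes of calcium, MAP kinase, CREB, SRF and MEF2 signalling, 3 were positive (median -0.02); after quantile normalization of the arrays 12 were positive. Camk2a, the abundant calcium-dependent kinase of synapses, had -0.18 ± 0.06 on its brightest probe set, and 2 of its 3 others were positive. Of 12 measured partners of Arc at the synapse, such as AMPA receptor subunits and endophilins, 2 were positive (median -0.03). Without rat 3, 5 of 12 partners were positive (median -0.015), and 5 of 12 after quantile normalization (median -0.005). Positive slopes made up 32.9% of all genes, and over all features 48.2% without rat 3 and 48.6% after quantile normalization.

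Lists for hormonal, circadian and stress states held no called gene either. Against their counts, 32.9% of all genes had a positive slope, with a median of -0.02. That share moved between fits as well. Over all 11557 features it was 32.1% with all 10 rats, 48.2% without rat 3, 33.5% without rat 8 and 28.3% without rat 4. It was 56.9% without rats 3 and 8, and 48.6% after quantile normalization. Glucocorticoid targets had 8 of 11 positive (median 0.04), with Nfkbia, the inhibitor of NF-kappaB, at 0.19 ± 0.07 and Ddit4, an inhibitor of mTOR, at 0.15 ± 0.07. Their count was 7 of 11 without rat 4 and 11 of 11 without rats 3 and 8 (median 0.09). Clock genes had 3 of 13 positive (median -0.03), 6 of 13 without rat 3 or without rat 8, and 10 of 13 without both. Heat shock and unfolded protein genes had 7 of 11 positive (median 0.02), with the chaperone partner Dnajb1 at 0.09 ± 0.05. Their positive slopes numbered 5 without rat 4, 8 without rat 3, 9 after quantile normalization and 11 without rats 3 and 8 (median 0.07). Ribosomal protein genes had 0 of 12 positive (median -0.08), with Rps6 at -0.09 ± 0.03, and 2 of 12 both without rat 3 (median -0.04) and after quantile normalization (median -0.03). Oxidative phosphorylation genes had 2 of 21 positive (median -0.03), 10 of 21 without rat 3 and 15 of 21 after quantile normalization.

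The dissection was checked against markers of cortex and its neighbours: 6 of 9 superficial and 9 of 11 deep layer neuron markers were measured above the filter, while the bulb markers Th, Eomes and Doc2g and the choroid plexus markers Ttr, Folr1 and Kl were not. Of 6 bulb markers on the array, 2 were above it, Dcx (mean 5.56) and Cdhr1 (4.34), and of 9 choroid plexus and ependyma markers 1, Enpp2 (10.82). Striatal markers varied most between rats, with a mean score (log2 relative to the mean over rats) from -0.62 in rat 2 to 1.46 in rat 7. No marker gene other than those on the activity lists was called, and the direction of several lists turned on 1 rat. Over all features the positive share also moved, from 32.1% with all rats to 48.2% without rat 3. Myelin and oligodendrocyte genes had 0 of 14 positive (median -0.13), with the myelin protein Mbp at -0.12 ± 0.05 and Aspa at -0.16 ± 0.07; without rat 3, 10 of 14 were positive (median 0.01). Meningeal and fibroblast genes had 10 of 11 positive (median 0.12), 3 of 11 without rat 3 (median -0.11) and 11 of 11 without rats 3 and 8 (median 0.18). Striatal projection neuron genes had 7 of 9 positive (median 0.10), but 3 of 9 without rat 4 (median -0.016), 4 of 9 without rat 6 (median -0.0016), 5 of 9 without rat 1 (median 0.0009) and 9 of 9 without rat 3 (median 0.31), with Drd2 between 4.05 in rat 2 and 7.57 in rat 7. Astrocyte genes had 0 of 10 positive (median -0.07; 2 of 10 without rat 3), microglial genes 1 of 7 (median -0.06; 4 of 7 without rat 3) and interneuron genes 10 of 11 (median 0.02; 10 of 11 without rat 3). Positive slopes numbered 3 of 6 for superficial layer neurons, 0 of 5 for oligodendrocyte precursors (median -0.06), and 0 of 2, 0 of 2 and 0 of 1 for the bulb, blood and choroid plexus lists. Rat 3 had the lowest mean score of the myelin list and rat 9 the highest of the meningeal list. For the activity lists, the medians without rat 3 were 0.32 for AP-1, 0.36 for Nr4a and 0.13 for Egr genes; without rat 10 the Egr median was 0.04, with 2 of 4 positive. With the striatal or the meningeal score as a covariate Dusp1, Nr4a1 and Junb passed the test and Klf2 did not (limma adjusted p = 0.0715 and 0.123). Beyond these values, the part of tissue composition in the slopes was not tested.

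**Figure D4:**
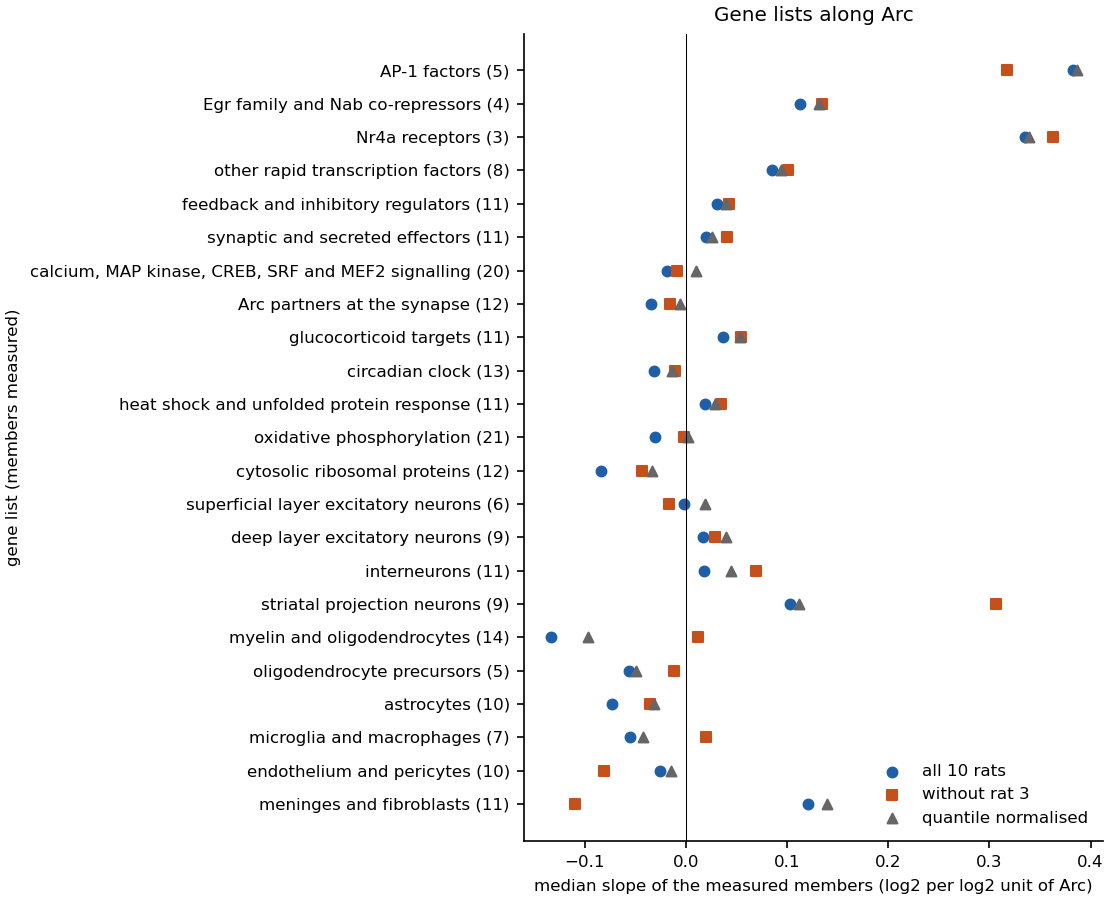
Median slope on Arc of the measured members of each gene list (number in brackets; lists with under 3 measured members are left out) over all 10 rats, without rat 3 and after quantile normalization. The AP-1 and Nr4a medians stay at 0.32 or above in each, while the myelin and meningeal medians change sign without rat 3.

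No relation of Arc with a behaviour score passed the test. Pearson r was -0.21 for startle (permutation p = 0.553), 0.19 for locomotion (p = 0.592), 0.24 for sugar feeding (p = 0.502) and 0.19 for prepulse inhibition (p = 0.598), all with n = 10. Spearman rho was -0.32 (p = 0.368), 0.26 (p = 0.470), 0.24 (p = 0.513) and 0.26 (p = 0.467). For the plus maze, with 7 rats, r was -0.30 (exact permutation p = 0.565), rho was -0.02 (exact p = 0.988), and r was 0.15 without rat 5. Over these 5 relations the Benjamini-Hochberg adjusted p of r was 0.598 for each. Without rats 3 and 8, r was -0.27, 0.59, 0.38 and 0.29 in the order above, and it was -0.42 for the plus maze without rats 8 and 10. All tests are two-sided.

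**Figure D5:**
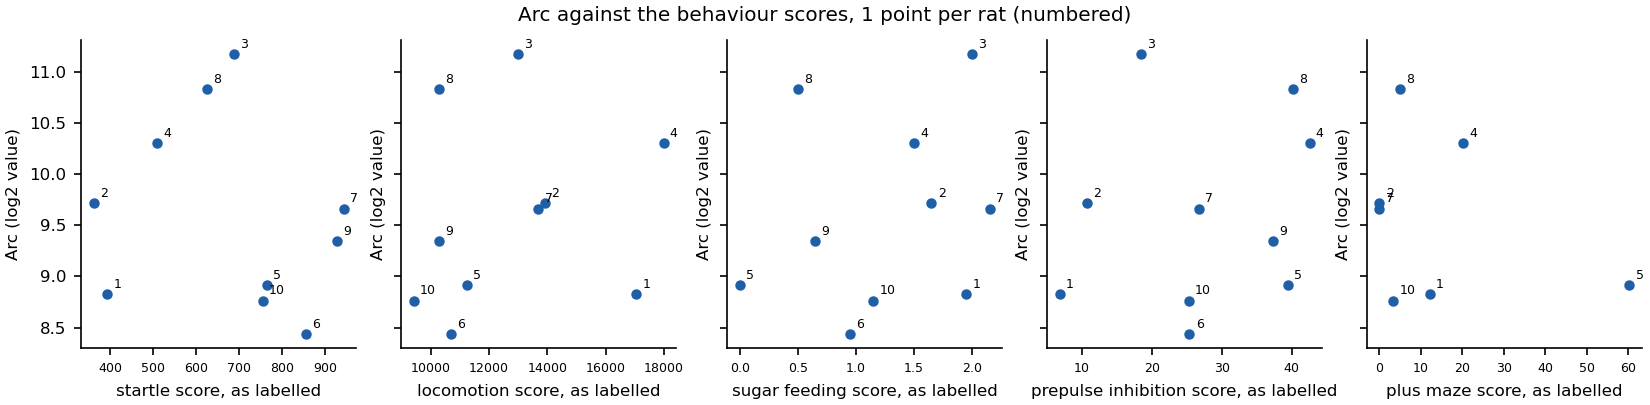
Log2 value of Arc (vertical axis) against each of the 5 behaviour scores as labelled (horizontal axes), 1 numbered point per rat. Pearson r runs from -0.30 (plus maze, 7 rats, with rat 5 far to the right) to 0.24 (sugar feeding).

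Array medians ran from 3.91 to 4.02 and upper quartiles from 8.12 to 8.25. Correlations between pairs of arrays ran from 0.996 to 0.999. The mean of the spike-in controls differed more, from 11.2 to 12.1. The share of features with a positive slope was 32.1% as deposited and 48.6% after quantile normalization. Arc was set against 6 technical measures (array median, upper quartile, spike-in level, the 3′ minus 5′ difference of the Gapdh and Actb controls, and the mean of features without a symbol). Pearson r lay between -0.25 and 0.06, with an adjusted permutation p of 0.876 for each and n = 10. With 10 arrays, the median SE of a slope was 0.05, and it differed between genes, with 0.02 for Ehbp1l1 and 0.18 for Klf2.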

How the data were processed

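RNA from the prefrontal cortex of 10 rats was measured on Affymetrix arrays, 1 array per rat. The deposited log2 values were made by the authors with GCRMA in R 2.6.2, per the submitters' processing notes; its other settings are not given in the sources here. GCRMA corrects background by probe sequence, so low values are compressed and a fold is least certain there. Of 31099 probe sets, 57 were controls, 20826 of the others had 1 symbol, 436 several and 9780 none; 20764 matched RefSeq.

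Slopes on Arc were fitted with limma 3.58.1 (lmFit and eBayes, R 4.3.3) over 15488 probe sets with a mean above 4, and p-values were adjusted over all of them by Benjamini-Hochberg; 11557 with 1 symbol are reported. The fit was checked on simulated data. Single relations used 100000 permutations or an exact test (SciPy 1.17.1). Genes were named by rule: the 15 of smallest p past the threshold in each direction, or the 10 of smallest unadjusted p where fewer than 5 passed; the 10 most and least like Arc; the measured activity genes; and the 3 of smallest p in each other list. Where several probe sets read a gene, that of highest mean was used. The text gives a selection of these, and 52 genes were followed through the alternative fits. The members and the 26 lists were chosen with earlier results of these data known. Alternatives left out rats, changed the filter, scaling, moderation or gradient, or added a covariate.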

Additional observations from a re-analysis of the deposited data

Results flagged for a closer look

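In 4 of 53 genes tested, the highest or lowest rat stood apart from the other 9 by more than Dixon's critical value for 10 samples. Chance flags about 1 in 20 such groups. Fos was 4.91 in rat 10, with the next rat at 7.42, a gap of 0.528 of the range. Egr1 was 11.38 in rat 10, with the next rat at 11.98 (0.526 of the range). Spry4 was 5.01 in rat 6, the rat of lowest Arc, with the next at 5.46 (0.479 of the range). Sik1 was 6.58 in rat 3, the rat of highest Arc, with the next at 6.28 (0.475 of the range).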

How the results depend on the processing

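The 4 calls became 2 to 4 when any 1 rat was left out (2 without rat 3, rat 6 or rat 8), 0 without rats 3 and 8, 1 (Junb) with ranks of Arc, 2 without a filter, 3 after quantile normalization (Klf2 lost, limma adjusted p = 0.0629), and 0 with Fos as the gradient, with rat 10 or, in a fit chosen after seeing the data, without it. With the spike-in covariate Klf2 was lost (adjusted p = 0.0979) and Gpr19 gained. Klf2 was also lost with a mean above 6, which leaves it out. The share of rising against falling features at an unadjusted p under 0.05 moved with scaling, from 118 against 228 to 193 against 158 after quantile normalization and 175 against 183 after centring on medians; it was 198 against 124 without rat 3 and 288 against 48 without rats 3 and 8. The slopes of 51 of the 52 genes tested kept their sign in every fit on Arc. Egr1 ran from -0.021 to 0.12 when 1 rat was left out. Enpp2, named above but not among the 52, had -0.076 over all rats and 0.008 without rat 3. The median slope of the Nr4a list ran from 0.29 to 0.42 when 1 rat was left out, and that of the feedback list was 0.13 without rats 3 and 8. The r of Arc with the plus maze ran from -0.46 to 0.15 when 1 rat was left out. Leaving out 1 rat gave r from -0.42 to 0.025 for the upper quartile, -0.44 to 0.069 for the spike-in level, -0.083 to 0.33 for Gapdh, -0.27 to 0.028 for Actb and -0.34 to 0.061 for features without a symbol. Without rats 3 and 8 the first 4 were 0.30, 0.38, -0.20 and 0.013. The cause of these changes was not tested. No other probe set carried the symbol Arc, so another could not serve as the gradient. No paired analysis was possible because the design has a single condition, with 1 array per rat. Signal near the filter limits what can be said of weak genes such as Klf2.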
